A study of Mus musculus with 25 samples.

Results

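Mouse embryonic stem (ES) cell clones with mutations of medium and of low effect in β-catenin were compared, 3 clones against 3, in the 25 libraries of the series. The medium group held S45P clone G5 and 2 clones of S45F, C1 and D9. The low group held S45C clone D3, T41N clone D3 and T41S clone H8. The study placed its mutations in low, medium and high categories of a mutation effect score that came from a separate reporter screen, and it drew the categories over these same libraries, so the separation of the groups is not independent evidence. All 6 clones were E14 cells, a feeder-free line grown in serum with leukaemia inhibitory factor, and they received no CHIR99021, an inhibitor of the kinase GSK3β.

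Each clone was heterozygous: 1 *Ctnnb1* allele carried the missense mutation, put there by repair of a selection cassette, and the other allele was not mutated. The other libraries were 9 clones of the high category (S37A, S37C, S37F, S37Y, T41A and T41I) and 10 libraries of unedited E14 cells, 2 at each CHIR99021 dose of 0, 2.5, 5, 7.5 and 10 µM given for 48 h. Each clone was sequenced once. S45F was the only mutation of the 6 clones with more than 1 clone, so for the other mutations the effects of mutation and clone cannot be told apart. All medium clones were mutated at codon 45, and the low clones at codon 45 (S45C) and codon 41 (T41N and T41S). The p-values measure the spread between clones within the low, medium and high categories, so the 9 high clones enter it too. Clones of a category mostly differ in mutation. Clones of 1 mutation, such as the 2 of S45F, were counted as separate replicates.

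β-catenin is the transcriptional effector of canonical Wnt signalling. Without a Wnt signal, casein kinase 1 phosphorylates the serine at codon 45, GSK3β then phosphorylates the residues before it, starting with the threonine at codon 41, and the marked protein is ubiquitinated and degraded. When the marks are missing, β-catenin accumulates, enters the nucleus and, with TCF/LEF factors, activates targets. In mouse ES cells moderate β-catenin activity favours the naive pluripotent state, in part by relieving repression by Tcf7l1, and β-catenin is also a structural part of cadherin junctions.

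The mutated codons lie in exon 3 of *Ctnnb1*. The reference bases of codons 31 to 48 of *Ctnnb1* (chr9:120950599-120950652, mm10, plus strand) are shown from 5′ to 3′, because every mutation of the clones falls within them, with codons 41 and 45 in capitals.
Ctnnb1 codons 31 to 48: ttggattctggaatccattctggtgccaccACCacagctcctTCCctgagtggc
The first capitals are codon 41, which encodes threonine and is changed in T41N and T41S. The second are codon 45, which encodes serine and is changed in S45F, S45P and S45C.

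The medium libraries held 751297 to 1593396 UMI counts and the low libraries 495616 to 1770304, the lowest being T41N clone D3 and the highest T41S clone H8. Levels are given as CPM, a gene's share of the UMI counts of a library scaled to a common total, which for this 3′ end protocol follows transcript number. A count of 0 allows up to 3 counts, or 1.69 to 6.05 CPM in these 6 libraries, for counting error only. The mitochondrial share was 1.76 to 2.27% in the medium and 1.61 to 2.43% in the low clones. Of the ES cell markers, *Sox2*, *Utf1*, *Dppa5a*, *Tdgf1*, *Nanog*, *Zfp42* and *Esrrb* were detected in every clone, whereas *Pou5f1* was listed at only 9.05 to 24.2 CPM.

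2 clones stood apart by chromosome. In S45F clone D9 the median gene of chromosome 6 was 0.45 above the median clone on the log2 scale (320 genes), and in S45C clone D3 the median gene of chromosome 16 was 0.37 above it (227 genes). The rise was seen along the whole length of both chromosomes, between 0.37 and 0.54 in windows of 20 Mb on chromosome 6 and between 0.31 and 0.57 on chromosome 16. The other 5 clones lay between -0.08 and 0.00 for chromosome 6 and between -0.11 and 0.00 for chromosome 16. S45C clone D3 was also 0.12 higher on chromosome 11 and 0.11 on X, and T41S clone H8 was slightly lower on most chromosomes, down to -0.16 on chromosome 17. A gain of the chromosome was not tested by DNA. The largest rises and falls on chromosomes 6 and 16 are therefore given apart, and genes of the lists that lie there are named as such.

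**Figure D1:**
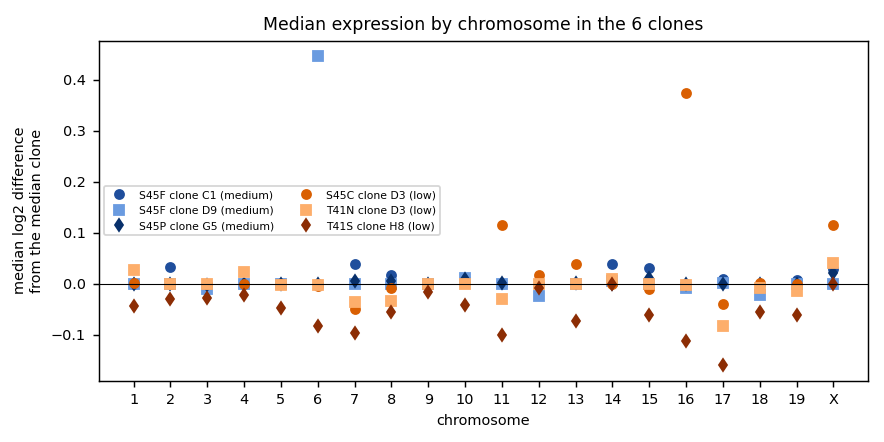
The median over genes of log2(CPM + 1) minus the median of the 15 clones (y axis) is plotted for each chromosome (x axis) and each of the 6 clones. S45F clone D9 stands at 0.45 on chromosome 6 and S45C clone D3 at 0.37 on chromosome 16.

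Of 10452 genes tested, 383 were higher (3.66%) and 762 lower (7.29%) in medium than in low clones, and the median log2 fold change of all tested genes was -0.0016. The values of the 3 medium clones lay wholly above those of the 3 low clones for 12.9% of the tested genes and wholly below for 13.2%. Outside chromosomes 6 and 16, 347 of 9634 genes were higher and 701 lower. Of 17 contractile actin genes 16 were lower in medium clones, and of 16 naive pluripotency genes 12 were higher.

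The count of genes rested strongly on T41S clone H8. Without it, 85 of 10563 genes were higher (0.805%) and 191 lower (1.81%), of which 81 and 188 were among those called with all clones. Without S45F clone C1 there were 217 higher and 470 lower genes, and without S45F clone D9 there were 214 and 432. Among the 762 lower genes T41S clone H8 had the highest value of the 6 clones for 633, T41N clone D3 for 72 and S45C clone D3 for 57. S45F clone D9 had the lowest value for 457 of them, S45F clone C1 for 189 and S45P clone G5 for 113. Among the 383 higher genes T41S clone H8 was the lowest of the 6 clones for 228, T41N clone D3 for 83 and S45C clone D3 for 71, and S45F clone C1 was the highest for 218, S45F clone D9 for 116 and S45P clone G5 for 49. T41S clone H8 was also the most deeply sequenced of the 6. With all clone libraries thinned to the smallest total, 495616 counts, 189 genes were higher and 379 lower. The part of depth in these counts was not tested further.

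**Figure D2:**
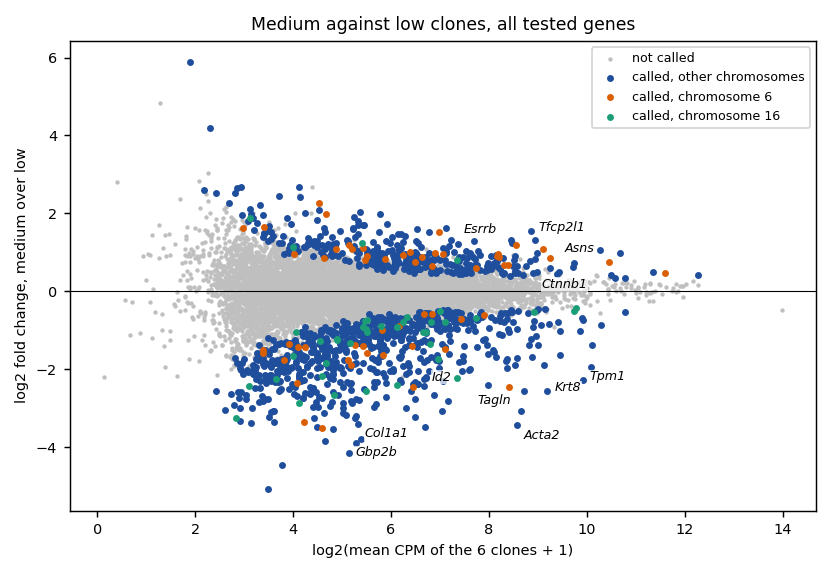
The log2 fold change of medium over low clones (y axis) is plotted against log2(mean CPM of the 6 clones + 1) (x axis) for the 10452 tested genes. Coloured points passed an adjusted p of 0.05, on chromosome 6, on chromosome 16 or elsewhere, and more of them lie below 0 (762) than above it (383).

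*Ctnnb1* itself did not pass the test. It measured 528, 452 and 469.9 CPM in the medium clones and 511, 434 and 525 CPM in the low clones, here and below in the order S45F clone C1, S45F clone D9 and S45P clone G5, then S45C clone D3, T41N clone D3 and T41S clone H8 (log2 fold change -0.05, SE 0.12, adjusted p = 0.837). The groups overlapped throughout. Of the 14 tested genes of β-catenin and its destruction complex, which holds β-catenin for phosphorylation, only *Gsk3b* was called. This kinase gene lies on chromosome 16 and measured 71.5, 47.7 and 47.9 CPM against 90.5, 74.7 and 114 CPM (log2 fold change -0.79, SE 0.24, adjusted p = 0.0346), and it was not called without T41S clone H8 (-0.54), S45F clone D9 (-0.66) or S45P clone G5 (-0.66). The median log2 fold change of this list was -0.10, and 7.29% of all tested genes were lower.

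The study's 10 β-catenin targets were partly different between the groups: 4 were higher in medium clones, none was lower and 6 did not pass. *Tbx3* (ENSMUSG00000018604.18, chr5:119670669-119684724, plus strand), a naive pluripotency factor, measured 89.1, 77.98 and 108 CPM in the medium clones and 28.7, 50.4 and 28.8 CPM in the low clones, so that each medium clone exceeded each low clone (log2 fold change 1.39, SE 0.27, adjusted p = 0.00202). *Cdx1*, a caudal homeobox factor and direct Wnt target, measured 81.6, 68.8 and 61.2 CPM against 34.7, 32.3 and 35.6 CPM (log2 fold change 1.01, SE 0.30, adjusted p = 0.0326). *Etv4*, an ETS factor of the FGF response, measured 93.5, 161 and 112 CPM against 73.9, 80.7 and 57.1 CPM (log2 fold change 0.81, SE 0.26, adjusted p = 0.0458). These 3 genes showed no overlap between the groups.

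*Gbx2*, a homeobox gene that LIF signalling also induces, measured 97.9, 121 and 74.5 CPM against 63.4, 74.7 and 28.8 CPM (log2 fold change 0.95, SE 0.27, adjusted p = 0.0258), with S45P clone G5 within 0.2 CPM of T41N clone D3. Without T41S clone H8 only *Tbx3* was still called, at a log2 fold change of 1.24 and an adjusted p of 0.0495, and over all alternatives its adjusted p ranged from 1.77e-07 to 0.131. The log2 fold changes without T41S clone H8 were 1.09 for *Cdx1*, 0.66 for *Etv4* and 0.53 for *Gbx2*. Of the 6 fits with 1 clone left out, *Cdx1* was called only in that without S45P clone G5, with log2 fold changes of 0.92 to 1.09 in the others. *Etv4* was also not called without S45C clone D3 (0.87) or S45F clone D9 (0.56), nor *Gbx2* without S45F clone C1 (0.99) or S45F clone D9 (0.79). In the 9 high clones the lowest, median and highest levels were 127, 179 and 269 CPM for *Tbx3* and 115, 258 and 334 CPM for *Cdx1*, above all medium clones for both genes.

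The negative feedback genes of the pathway did not pass. *Axin2*, a scaffold of the destruction complex, measured 30.1, 22.9 and 33.3 CPM against 22.6, 38.3 and 42.4 CPM (log2 fold change -0.36, SE 0.32, adjusted p = 0.522). *Sp5*, a transcription factor that tracks Wnt activity, measured 36.4, 64.2 and 50.6 CPM against 52.8, 62.5 and 80.2 CPM (log2 fold change -0.48, SE 0.34, adjusted p = 0.409). *Notum*, a secreted enzyme that removes the lipid from Wnt proteins, measured 43.3, 46.8 and 73.2 CPM against 58.8, 38.3 and 25.98 CPM (log2 fold change 0.43, SE 0.37, adjusted p = 0.508). All 3 overlapped between the groups. *Znrf3* and *Nkd1* were likewise not called, with log2 fold changes of -0.27 and -1.78. The target *Bmp4*, a BMP ligand and not a feedback gene, was not called either (-0.13). The median log2 fold change of the 10 targets was 0.15, and 0.09 without T41S clone H8. The 10 summed to 581 to 757 CPM in the medium, 442 to 531 CPM in the low and 807 to 1315 CPM in the high clones. In unedited cells at 0 µM they summed to 237 to 249 CPM. Without the 4 called genes the sums of medium and low clones overlapped. The study reported that these targets correlated positively with the score in its clones. The 4 of 10 called higher stand beside 3.66% of all tested genes. The study chose them for their relation to the CHIR99021 dose in the unedited libraries of this series, so the list is not independent evidence of a direction.

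Of 13 other tested Wnt targets, 2 were lower in medium clones and none higher, with a median log2 fold change of -0.53, beside 7.29% lower among all tested genes. The median was -0.28 without T41S clone H8 and -0.0096 among the codon 45 clones only. *Lef1*, a TCF/LEF factor induced by Wnt signalling, measured 5.65, 14.7 and 10.6 CPM in the medium clones and 39.2, 52.5 and 27.7 CPM in the low clones (log2 fold change -1.95, SE 0.41, adjusted p = 0.00334). Each low clone exceeded each medium clone, and without T41S clone H8 the log2 fold change was -2.19. *Tnfrsf19*, a receptor of the TNF family, measured 5.65, 4.59 and 15.97 CPM against 37.7, 22.2 and 41.8 CPM (log2 fold change -2.19, SE 0.49, adjusted p = 0.00494) and was not called without T41S clone H8 (log2 fold change -1.94). Among 17 tested genes of Wnt signal reception and nuclear factors, the receptor *Fzd5* and the Wnt acyltransferase *Porcn* were higher at log2 fold changes of 1.08 and 0.92. Of all tested genes 3.66% were higher. The receptor *Fzd2*, the Wnt carrier *Wls*, the factor *Tcf7l2* and the co-activator *Bcl9l* were lower, at -2.32, -2.06, -1.81 and -1.84. None of these 6 was called without T41S clone H8, where the values were 0.70 for *Fzd5*, 0.86 for *Porcn*, -1.67 for *Fzd2*, -1.08 for *Wls*, -1.11 for *Tcf7l2* and -1.53 for *Bcl9l*. *Fzd5* was also not called without S45F clone D9 (0.91), *Porcn* without S45C clone D3 (0.81) or S45F clone D9 (0.86), and *Bcl9l* without S45F clone C1 (-1.43).

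The TCF/LEF motif CTTTGA, on either strand, was found in 50 of 391 RefSeq promoters (12.8%) of the higher genes and in 80 of 849 (9.42%) of the lower genes, against 1156 of 10372 promoters (11.1%) of all tested genes. A promoter here is the 250 bases before to 50 bases after a gene's start, and 307 of the 383 higher and 600 of the 762 lower genes had one. A match is a description of these letters and not a binding site.

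Naive pluripotency genes were higher in medium clones: 12 of 16 tested rose, none fell and the median log2 fold change was 1.05, against -0.0016 over all tested genes. Of all tested genes 3.66% were higher. *Tfcp2l1* (ENSMUSG00000026380.10, chr1:118627945-118685168, plus strand), a factor that holds ES cells in the naive state downstream of LIF and GSK3β inhibition, measured 667, 703 and 707 CPM in the medium clones and 267, 301 and 154 CPM in the low clones. The medium clones were close to each other and 2.92-fold higher than the low clones, of which T41S clone H8 was the lowest (log2 fold change 1.54, SE 0.19, adjusted p = 8.42e-05). Its adjusted p ranged from 7.83e-15 to 0.0202 over all alternatives, so that it was called in every one of them.

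*Esrrb*, an orphan nuclear receptor of the naive network, measured 584, 525 and 371 CPM in the medium clones and 216, 274 and 121 CPM in the low clones (log2 fold change 1.31, SE 0.20, adjusted p = 0.000276). *Klf4*, a reprogramming factor, measured 479, 600.0 and 419 CPM against 213, 262 and 163 CPM (log2 fold change 1.24, SE 0.20, adjusted p = 0.000408). *Tcl1*, a co-activator of the kinase AKT, measured 105, 92.7 and 71.9 CPM against 37.7, 28.2 and 20.3 CPM (log2 fold change 1.73, SE 0.22, adjusted p = 9.03e-05). In all 3 genes the groups did not overlap. *Klf2*, *Klf5*, *Zfp42*, *Nr0b1*, *Fgf4*, *Tdh* and *Pecam1* were higher at log2 fold changes of 0.65 (*Zfp42*) to 1.11 (*Pecam1*), and *Tbx3* is described with the study's targets.

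Of the 16 naive genes 14 had every medium clone above every low clone, as had 12.9% of all tested genes. *Nanog*, on chromosome 6, measured 525, 440.3 and 351 CPM against 281, 349 and 198 CPM and did not pass (log2 fold change 0.68, SE 0.24, adjusted p = 0.0705). *Dppa3*, also on chromosome 6 (log2 fold change 1.32, SE 0.60, adjusted p = 0.167), *Prdm14* (log2 fold change 1.84, SE 0.63, adjusted p = 0.0614) and *Nr5a2* (log2 fold change 0.77, SE 0.33, adjusted p = 0.138) did not pass either. Without T41S clone H8, *Tfcp2l1*, *Esrrb*, *Klf4*, *Klf5*, *Tbx3* and *Tcl1* were still called and the list's median was 0.71. Leaving out S45F clone C1 left 9 of the 12 called (not *Nr0b1*, *Tdh* or *Pecam1*), as did leaving out S45F clone D9 (not *Nr0b1*, *Tdh* or *Zfp42*).

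The unedited cells at 0 µM measured 475 and 387 CPM for *Tfcp2l1* and 346 and 286 CPM for *Esrrb*, between the medium and the low clones. The unedited libraries were apart from the clones in mitochondrial share, 0.485 to 1.46%, and whether that moves these levels was not tested. In the high clones the lowest, median and highest levels of *Tfcp2l1* were 807, 1090.3 and 1306 CPM.

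General pluripotency genes differed less. Of all tested genes 3.66% were higher and 7.29% lower, the shares beside which the counts here stand. Of 11 tested core genes, *Dppa5a* (802, 616 and 589.6 CPM against 388, 365 and 256 CPM; log2 fold change 0.99, SE 0.17, adjusted p = 0.000666), *Sox2* (log2 fold change 0.61) and *Tdgf1*, a Nodal co-receptor (log2 fold change 0.64), were higher, none was lower and the median was 0.14. Only *Dppa5a* was called without T41S clone H8, where the log2 fold changes of the others were 0.37 and 0.57. *Sox2* and *Tdgf1* were also not called without S45F clone C1 (0.54 and 0.55) or S45F clone D9 (0.65 and 0.60). Among 11 tested genes of LIF signalling, which keeps ES cells undifferentiated through STAT3, *Klf4*, *Tfcp2l1*, *Gbx2*, the LIF receptor *Lifr* (log2 fold change 0.79) and the feedback inhibitor *Socs3* (0.68) were higher and none was lower. *Klf4* and *Tfcp2l1* were still called without T41S clone H8. *Lifr* was not called without S45F clone D9 either (0.61), nor *Socs3* without S45F clone C1 (0.54) or S45F clone D9 (0.76). Of 11 tested primed genes, which mark the later epiblast state, *Pou3f1* (35.8, 25.7 and 83.9 CPM against 149, 101 and 181 CPM; log2 fold change -1.71, SE 0.32, adjusted p = 0.00125) and *Lef1* were lower in medium clones, and both were called without T41S clone H8.

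**Figure D3:**
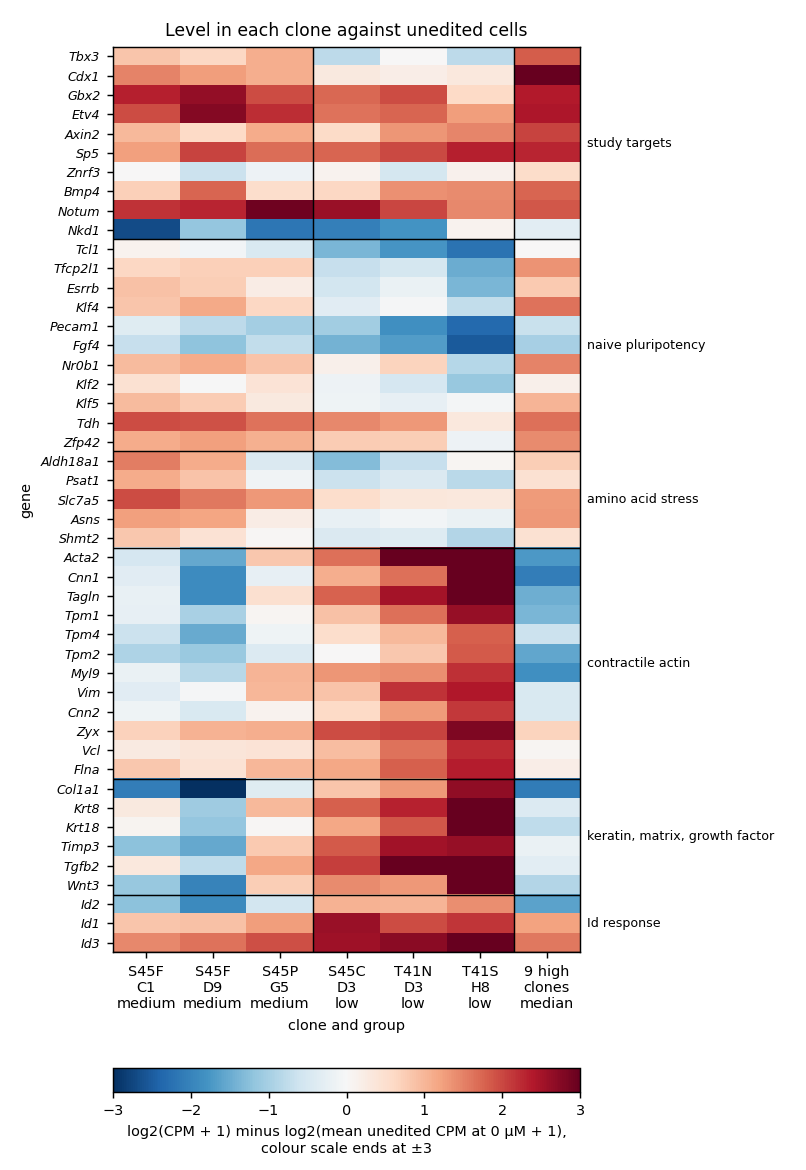
Colours give log2(CPM + 1) of each named gene (rows) in each of the 6 clones and as the median of the 9 high clones (columns), minus the level of unedited cells at 0 µM. The contractile actin and keratin genes are redder in the low than in the medium clones and deepest in T41S clone H8, with *Tpm2* near 0 in S45C clone D3, and the naive pluripotency genes show the reverse order.

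Genes of the contractile actin cytoskeleton were lower in medium clones. Of 17 tested genes 16 were lower in medium clones, beside 7.29% of all tested genes, and the median log2 fold change was -1.68. *Acta2* (ENSMUSG00000035783.8, chr19:34241090-34255590, minus strand), the smooth muscle actin, measured 53.3, 25.7 and 133 CPM in the medium clones and 241, 646 and 1169 CPM in the low clones, a 10.7-fold lower level in medium clones (log2 fold change -3.43, SE 0.53, adjusted p = 0.000309). *Tagln*, which encodes the actin-bundling protein transgelin, measured 92.3, 28.4 and 152 CPM in the medium clones and 373, 621 and 1147 CPM in the low clones (log2 fold change -3.08, SE 0.42, adjusted p = 0.000122). *Tpm1*, a tropomyosin, measured 358, 217 and 445 CPM against 784, 1349.8 and 2628 CPM (log2 fold change -2.28, SE 0.31, adjusted p = 0.000122).

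In these 3 genes the order of the low clones was the same, with S45C clone D3 the lowest and T41S clone H8 the highest, and S45F clone D9 was the lowest of all 6. The calponin *Cnn1* measured 10.04, 2.75 and 10.6 CPM against 28.7, 42.4 and 129.9 CPM (log2 fold change -3.25, SE 0.53, adjusted p = 0.000439). *Cnn2*, *Tpm2*, *Tpm4*, *Myl9*, *Myl6*, *Myl12a*, *Vcl*, *Vim*, *Flna*, *Zyx*, *Tagln2* and *Actg1* were lower at log2 fold changes of -2.04 (*Tpm4*) to -0.76 (*Actg1*). The gene of the list that did not pass was *Actb*, the abundant non-muscle actin (log2 fold change -0.47, SE 0.20, adjusted p = 0.136). *Zyx* lies on chromosome 6.

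Of the 17 genes 14 had every low clone above every medium clone, as had 13.2% of all tested genes. Without T41S clone H8, 10 of the 16 were still called (*Acta2*, *Tagln*, *Cnn1*, *Cnn2*, *Tpm1*, *Tpm2*, *Tpm4*, *Myl12a*, *Flna* and *Vim*) and the list's median was -1.12. The log2 fold change without that clone was -2.71 for *Acta2*, -2.48 for *Tagln*, -1.65 for *Tpm1*, -1.27 for *Tpm2* and -2.15 for *Cnn1*. None of the 16 was called among the codon 45 clones only, where they stood at -2.06 to -0.085 and the list's median was -0.74. *Myl6* was also not called without S45F clone C1 (-0.76), nor *Actg1* and *Myl9* without S45F clone C1 (-0.70 and -1.53) or S45F clone D9 (-0.63 and -1.40). The unedited cells at 0 µM measured 64.7 and 87.2 CPM for *Acta2* and 89.7 and 128 CPM for *Tagln*, below every low clone. In the high clones *Acta2* measured 8.18, 22.4 and 44.8 CPM and *Tagln* 34.1, 38.97 and 86.1 CPM (lowest, median and highest).

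Serum response factor, which is activated when free actin is depleted, binds the CArG box, and many contractile genes are known to be its targets. The box was searched after the list's change was known. It was found in 5 of the 16 RefSeq promoters (31.2%) of the tested contractile genes, in 26 of 849 (3.06%) of all lower genes, in 5 of 391 (1.28%) of the higher genes and in 128 of 10372 (1.23%) of all tested genes. A high share in the contractile list follows in part from the choice of its genes. Its 5 promoters are also counted among those of the lower genes. Whether the factor had a part in the change was not tested. The promoters of *Myl9* (chr2:156775214-156775513), *Cnn2* (chr10:79988350-79988649) and *Vcl* (chr14:20929148-20929447), all on the plus strand of GRCm38.p6 in RefSeq, are shown because these genes had the largest falls of the 5, with the box in capitals. The other 2 promoters with the box were those of *Myl6* and *Actg1*. Of these 5 genes only *Cnn2* was still called without T41S clone H8. *Acta2*, *Cnn1*, *Tagln* and *Tpm1*, which fell further, were not among the 5. Of the 17 tested contractile genes 15 had a promoter to search, and those without one are not named here. Bases outside the promoters, as defined for the TCF/LEF motif, were not searched. Absence from the 5 therefore does not show that a gene lacks the box.
Myl9: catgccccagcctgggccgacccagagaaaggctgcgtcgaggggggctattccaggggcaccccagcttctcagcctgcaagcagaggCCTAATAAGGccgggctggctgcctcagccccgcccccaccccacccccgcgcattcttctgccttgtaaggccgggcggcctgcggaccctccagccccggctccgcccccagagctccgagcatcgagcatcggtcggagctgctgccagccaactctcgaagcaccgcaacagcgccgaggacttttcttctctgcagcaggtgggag
Cnn2: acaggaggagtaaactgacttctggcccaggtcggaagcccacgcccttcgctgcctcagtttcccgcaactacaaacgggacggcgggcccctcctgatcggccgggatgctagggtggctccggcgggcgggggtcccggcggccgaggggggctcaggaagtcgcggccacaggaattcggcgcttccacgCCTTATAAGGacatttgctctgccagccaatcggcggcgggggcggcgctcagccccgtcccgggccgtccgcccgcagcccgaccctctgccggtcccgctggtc
Vcl: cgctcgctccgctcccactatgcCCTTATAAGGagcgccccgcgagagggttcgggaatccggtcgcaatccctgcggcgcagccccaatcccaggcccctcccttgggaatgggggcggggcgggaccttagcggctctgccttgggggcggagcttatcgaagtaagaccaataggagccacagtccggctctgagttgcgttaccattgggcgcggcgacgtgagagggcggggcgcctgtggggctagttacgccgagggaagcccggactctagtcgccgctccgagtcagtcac
The box began 161, 56 and 227 bases before the gene start in the 3 promoters. In the clones *Myl9*, a myosin light chain, measured 11.9, 7.34 and 29.3 CPM against 36.2, 38.3 and 67.8 CPM (log2 fold change -1.76, SE 0.43, adjusted p = 0.0102). *Cnn2*, a calponin, measured 234, 188 and 277 CPM against 392, 625 and 1116 CPM (log2 fold change -1.68, SE 0.29, adjusted p = 0.000767). *Vcl*, the focal adhesion protein vinculin, measured 72.2, 77.1 and 79.9 CPM against 115, 186 and 285 CPM (log2 fold change -1.44, SE 0.30, adjusted p = 0.00295).

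Of 14 tested genes of adhesion and epithelial state 5 were lower in medium clones and none higher, beside 7.29% lower among all tested genes. *Krt8*, a keratin that pairs with *Krt18* into filaments of simple epithelia, measured 178, 68.8 and 288 CPM in the medium clones and 505, 718 and 1738 CPM in the low clones (log2 fold change -2.56, SE 0.44, adjusted p = 0.000724). *Krt18* measured 159, 66.97 and 154 CPM against 339, 547 and 1258 CPM (log2 fold change -2.56, SE 0.39, adjusted p = 0.000274). Both were called without T41S clone H8, at log2 fold changes of -1.80 and -1.79. The tight junction genes *Cldn6* and *Cldn7* and the catenin gene *Ctnnd1* were lower too, at -1.77, -1.77 and -0.55. Without T41S clone H8, *Cldn6* was called (-1.18), *Cldn7* and *Ctnnd1* were not (-0.96 and -0.46), and *Ctnnd1* was not called without S45C clone D3 (-0.54), S45F clone C1 (-0.41) or S45F clone D9 (-0.51) either.

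The 15 largest falls outside chromosomes 6 and 16, among genes of at least 20 CPM whose groups did not overlap, ranged from -4.14 (*Gbp2b*) to -3.12 (*Timp3*). The interferon-inducible guanylate-binding proteins *Gbp2b* and *Gbp2* measured 5.65, 2.75 and 2.66 CPM in the medium clones and 45.3, 28.2 and 119.8 CPM in the low clones for *Gbp2b*. *Gbp2* measured 6.903, 4.59 and 6.66 CPM against 46.8, 36.3 and 145 CPM. These neighbouring paralogs are similar, and their reads may be split between them. Both were called without T41S clone H8 (log2 fold changes -3.19 and -2.76) and among codon 45 clones only.

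*Col1a1*, a collagen chain, measured 3.77, 0 and 14.6 CPM against 34.7, 48.4 and 126 CPM (log2 fold change -3.88, SE 0.61, adjusted p = 0.000325). *Tgfb2*, a TGFβ ligand, measured 6.903, 2.75 and 13.3 CPM against 25.6, 72.6 and 112 CPM (log2 fold change -3.39, SE 0.49, adjusted p = 0.000151). *Wnt3*, a Wnt ligand, measured 2.51, 0.917 and 11.98 CPM against 19.6, 18.2 and 70.6 CPM (log2 fold change -3.25, SE 0.65, adjusted p = 0.00218). *Wnt3* was the one gene of the 15 that was not called without T41S clone H8 (log2 fold change -2.11). Without that clone *Col1a1* stood at -2.95 and *Tgfb2* at -2.72. The other falls reported here were *Ccn4*, a matricellular protein and known Wnt target, *Csf1*, a macrophage growth factor, *Acta1*, skeletal actin, *Timp3*, an inhibitor of metalloproteinases, *Prss23*, a serine protease, *Tgfb1i1*, a focal adhesion protein, *Tspan2*, a tetraspanin, and the contractile genes *Acta2* and *Cnn1* described above. *Acta1* measured 22.6, 9.17 and 23.96 CPM against 69.4, 101 and 390.3 CPM, with T41S clone H8 the highest. Without that clone the log2 fold change was -2.18 for *Acta1*, -2.56 for *Csf1*, -2.15 for *Prss23* and -2.73 for *Tspan2*.

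The Id genes, inhibitors of basic helix-loop-helix factors and targets of BMP signalling, were lower in medium clones. *Id2* (ENSMUSG00000020644.8, chr12:25093799-25097140, minus strand) measured 31.4, 19.3 and 50.6 CPM in the medium clones and 155, 153 and 199 CPM in the low clones, and the low clones were close to each other (log2 fold change -2.43, SE 0.24, adjusted p = 1.02e-05). Its adjusted p ranged from 1.54e-16 to 0.00545 over all alternatives, so that it was called in every one, among the codon 45 clones too. *Id1* measured 33.9, 34.9 and 45.3 CPM against 116, 74.7 and 85.9 CPM (log2 fold change -1.33, SE 0.30, adjusted p = 0.00558). *Id3* measured 46.4, 53.2 and 65.2 CPM against 101, 113 and 167 CPM (log2 fold change -1.31, SE 0.26, adjusted p = 0.00214). *Msx1* was lower at -2.55 on levels of 0.917 to 13.0 CPM. In all, 4 of 9 tested genes of the list were lower and none higher, beside 7.29% lower among all tested genes. *Id3* and *Msx1* were not called without T41S clone H8, at log2 fold changes of -0.98 and -1.52. Of the fits with 1 clone left out, *Msx1* was called only in that without S45C clone D3, with values of -2.88 to -1.52 in the others. *Bmp4*, the ligand, did not pass.

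Markers of other cell types were checked because some of the lower genes are also expressed outside ES cells. Of all tested genes 7.29% were lower, the share beside which the counts of this and the next paragraph stand. Of 10 fibroblast and feeder markers 2 were tested: *Col1a1* was lower and *Pdgfrb* was not called. The summed level of the list was 8.26 to 26.6 CPM in the medium and 54.3 to 185 CPM in the low clones. In the low clones this was mostly *Col1a1*, but the rest of the sum was also higher there than in the medium clones. *Lum*, *Dcn* and *Postn* were at 0 to 4.53 CPM, and the levels of the other members are not given here. Of 15 tested primitive endoderm genes the matrix genes *Col4a1* (-2.38) and *Sparc* (-1.95) were lower, and *Gata4*, *Gata6*, *Sox7* and *Sox17*, which define that lineage, were at 0 to 7.34 CPM. The list summed to 788 to 984 CPM in the medium and 1595 to 3453 CPM in the low clones, and neither gene was called without T41S clone H8 (-1.73 and -1.45). Of the 6 fits with 1 clone left out, *Col4a1* was called only in that without S45C clone D3, with values of -2.49 to -1.73 in the others. The count depended on the high clones, in which the list summed to 697 to 3149 CPM. In the fit of the 6 clones only, 7 genes of the list passed the filter, with a median of -1.95. Of these 5 were lower, beside 554 of all 8795 genes tested in that fit. Whether such cells were present in any clone was not tested.

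Of 9 tested trophoblast genes *Hand1* (-2.32) and the keratins *Krt7* (-2.47), *Krt8* and *Krt18* were lower, while *Elf5* had no count in any of the 6 clones and *Cdx2* was at 0 to 2.26 CPM. The list summed to 250 to 539 CPM in the medium and 1003 to 3157 CPM in the low clones. Most of each sum was *Krt8* and *Krt18*, at 1738 and 1258 CPM in T41S clone H8. Without the keratins the sums of the groups overlapped. Of 7 tested neural genes *Nes* (-2.77), *Sox11* (-1.80) and *Cdh2* (-1.93) were lower, while *Sox1*, *Zic1*, *Hes5*, *Fabp7* and *Dcx* were at 0 to 3.67 CPM. That list summed to 167 to 237 CPM against 314 to 531 CPM. *Hand1*, *Krt7* and *Cdh2* were not called without T41S clone H8 (-2.25, -1.85 and -1.77), and *Nes* was called at -1.79. *Hand1* and *Cdh2* were not called without S45F clone C1 either (-1.71 and -1.54). Of the primitive streak genes 4 of 15 were tested, and *Wnt3* and *Eomes* (-1.88) were lower. *Eomes* was at most 14.7 CPM in the 6 clones and lost its call without T41S clone H8 (-1.64), S45F clone C1 (-1.73) or S45F clone D9 (-1.72).

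**Figure D4:**
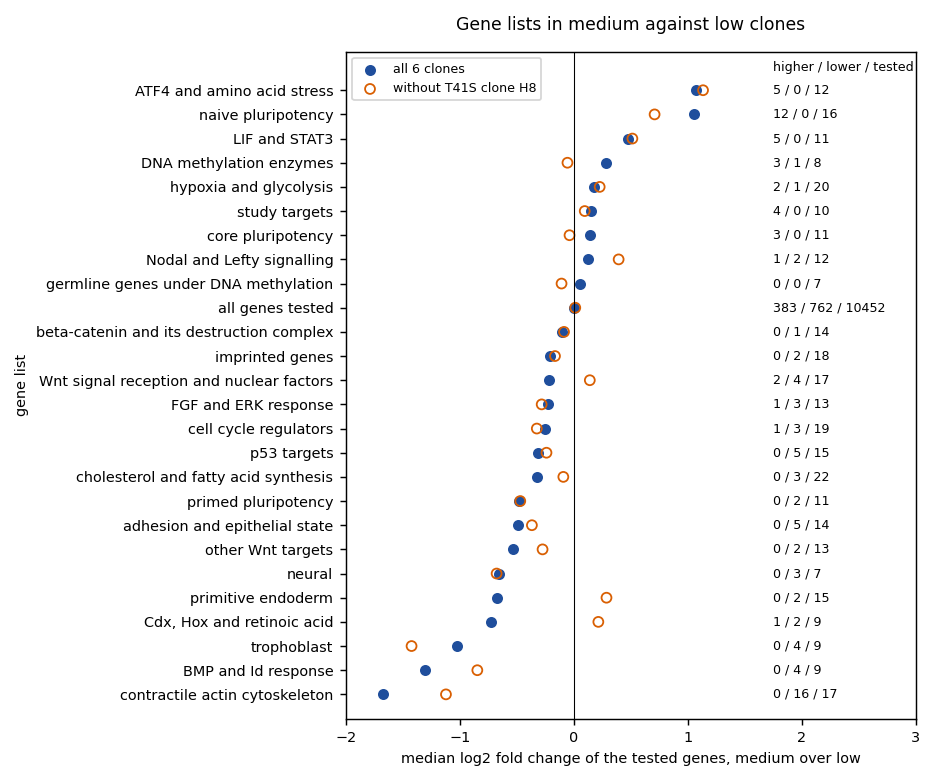
Filled points give the median log2 fold change of medium over low clones (x axis) of the tested genes of each list with at least 7 of them (y axis) with all clones, open points the same without T41S clone H8, and the numbers at the right the genes higher, lower and tested. Of the lists drawn, the contractile list lies lowest (-1.68) and the amino acid stress and naive lists highest (1.07 and 1.05), and without T41S clone H8 the sign turns for 6 lists: primitive endoderm (0.29), Cdx, Hox and retinoic acid (0.21), Wnt reception (0.14), DNA methylation enzymes (-0.06), core pluripotency (-0.04) and germline genes (-0.11).

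Genes of amino acid synthesis and transport were among the higher genes. Of 12 tested genes of the ATF4 and amino acid stress response, 5 were higher in medium clones, none was lower and the median was 1.07. Of all tested genes 3.66% were higher. *Psat1*, of serine synthesis, measured 927, 779.8 and 398 CPM in the medium clones and 275, 317 and 246 CPM in the low clones (log2 fold change 1.32, SE 0.22, adjusted p = 0.000535). *Slc7a5*, a subunit of a transporter of large neutral amino acids, measured 163, 127 and 104 CPM against 60.3, 52.5 and 51.4 CPM (log2 fold change 1.25, SE 0.18, adjusted p = 0.000191). *Asns*, asparagine synthetase, lies on chromosome 6 and measured 915, 883 and 453 CPM against 333, 365 and 338 CPM (log2 fold change 1.10, SE 0.18, adjusted p = 0.000535).

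In these 3 genes S45F clone C1 was the highest and S45P clone G5 the lowest medium clone, and no low clone reached a medium clone. *Shmt2*, of mitochondrial one-carbon metabolism (log2 fold change 1.05, SE 0.20, adjusted p = 0.00187), and *Aldh18a1*, of proline synthesis (log2 fold change 1.41, SE 0.43, adjusted p = 0.0344), were the other higher genes. All 5 were called without T41S clone H8, where the list's median was 1.13, with *Aldh18a1* at 2.14. None was called among the codon 45 clones only, where the 5 stood at 0.94 to 2.49 and the list's median was 1.29. *Aldh18a1*, whose groups overlapped, was not called without S45C clone D3 (1.18), S45F clone C1 (1.02), S45F clone D9 (1.38) or T41N clone D3 (1.35). In the unedited cells *Psat1* measured 431 and 432 CPM and *Slc7a5* 42.4 and 40.4 CPM.

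The 15 largest rises outside chromosomes 6 and 16, by the same rule, ran from 2.09 (*Accsl*) to 1.59 (*Cnpy1*). *Cpt1a*, the carnitine acyltransferase that admits fatty acids to mitochondria, measured 83.5, 80.7 and 26.6 CPM in the medium clones and 15.1, 20.2 and 14.1 CPM in the low clones (log2 fold change 2.03, SE 0.32, adjusted p = 0.000325). *Pck2*, mitochondrial phosphoenolpyruvate carboxykinase, measured 97.3, 53.2 and 22.6 CPM against 10.6, 22.2 and 15.8 CPM (log2 fold change 1.91, SE 0.39, adjusted p = 0.0026). *Tet2*, a 5-methylcytosine dioxygenase, measured 143, 128 and 136 CPM against 36.2, 66.6 and 36.7 CPM (log2 fold change 1.60, SE 0.28, adjusted p = 0.000666).

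The other rises were *Gpt2*, a mitochondrial alanine transaminase (1.70), *Aqp3*, an aquaglyceroporin (1.84), *Ly75*, an endocytic receptor (1.80), *Mymx*, known for muscle cell fusion (1.98), *Dlgap3*, a scaffold protein (1.71), the septin gene *Sept1* (1.63), *Lrrc34* (1.63), *Lrrc2* (1.62) and *Tcl1*. *Xist*, the RNA of X inactivation, measured 86.6, 45.9 and 53.2 CPM against 15.1, 36.3 and 13.6 CPM (log2 fold change 1.71, SE 0.34, adjusted p = 0.00197), but it overlaps its antisense gene *Tsix*, and whether strand was used in counting is not given in the sources used here. Without T41S clone H8, *Cpt1a*, *Pck2*, *Ly75*, *Tcl1*, *Dlgap3*, *Sept1* and *Tet2* were still called and the other 8 were not. *Accsl* was at 1.13 CPM in T41S clone H8, and its log2 fold change without that clone was 1.11. *Accsl*, *Aqp3* and *Lrrc2* were not called without S45F clone D9 either (1.91, 1.501 and 1.29), nor *Gpt2* without S45F clone C1 (1.23).

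On chromosome 6, 32 of 486 tested genes were higher (6.58%) and 25 lower (5.14%), with a median log2 fold change of 0.16. Without S45F clone D9, in which this chromosome stood higher, 13 of 502 were higher and 19 lower and the median was 0.02. The 3 largest rises there were the non-coding RNA *Halr1* (37.7, 50.5 and 19.97 CPM against 7.54, 12.1 and 5.65 CPM; log2 fold change 2.27, SE 0.43, adjusted p = 0.00146), the factor *Klf15* (1.99) and *Mthfd2* of mitochondrial one-carbon metabolism (1.53). S45F clone D9 was the highest clone for *Halr1* and *Klf15* and not for *Mthfd2*, which measured 242, 215 and 99.8 CPM against 72.4, 70.6 and 54.8 CPM. Among the largest falls were the actin-binding *Cald1* (100.4, 73.4 and 158 CPM against 291, 472 and 944 CPM; log2 fold change -2.46, SE 0.33, adjusted p = 0.000122) and the filamin *Flnc* (26.99, 11.01 and 49.2 CPM against 101, 133 and 198 CPM; log2 fold change -2.45, SE 0.34, adjusted p = 0.000126). S45F clone D9 was the lowest clone for both. Without T41S clone H8, *Cald1* stood at -1.80, *Halr1* and *Klf15* were not called (1.95 and 1.70), and *Klf15* was not called without S45F clone C1 (1.97) or S45F clone D9 (1.77).

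On chromosome 16, 4 of 332 tested genes were higher (1.20%) and 36 lower (10.8%), with a median of -0.17. Without S45C clone D3, in which this chromosome stood higher, 16 of 338 were higher and 34 lower and the median was 0.03. The 3 largest falls were *Vgll3*, a TEAD cofactor (4.39, 5.504 and 15.97 CPM against 43.7, 38.3 and 58.2 CPM; log2 fold change -2.67, SE 0.48, adjusted p = 0.00093), *Gap43*, a growth cone protein (8.16, 5.504 and 31.9 CPM against 60.3, 42.4 and 115 CPM; log2 fold change -2.54, SE 0.51, adjusted p = 0.00218), and *Phldb2*, of the cell cortex (25.1, 11.01 and 34.6 CPM against 84.5, 76.7 and 178 CPM; log2 fold change -2.41, SE 0.36, adjusted p = 0.000192). *Gap43* was not called without T41S clone H8 (log2 fold change -1.92), and *Phldb2* was called at -1.81. *Cryzl1*, a quinone oxidoreductase-like gene, was the one rise that met the rule (91.00, 55.96 and 30.6 CPM against 18.1, 22.2 and 30.5 CPM; log2 fold change 1.25, SE 0.30, adjusted p = 0.00895), and it was not called without S45F clone C1 (0.82).

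To place each clone by genes it did not choose, each was left out in turn, the comparison was refitted on the rest, and the clone's level was set between the mean of the kept low clones (0) and of the kept medium clones (1) at every gene then called. The median position was 0.89 for S45F clone C1 (678 genes), 1.12 for S45F clone D9 (641 genes) and 0.63 for S45P clone G5 (1263 genes). It was 0.45 for S45C clone D3 (1404 genes), 0.21 for T41N clone D3 (1094 genes) and -0.35 for T41S clone H8 (275 genes). The left-out medium clones were nearer to the medium side at 88.2, 94.2 and 66.5% of genes, and S45C, T41N and T41S at 43.9, 23.9 and 6.18%. Each clone was placed by its own set of genes and between ends that it did not help to set, so the 6 positions are not on 1 common scale. The study drew the categories over these libraries, the left-out clone among them, so the side on which a clone fell is not independent evidence. For each S45F clone the other clone of that mutation stayed in the medium end.

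At the 1140 genes called with all clones and measured at 5 CPM or more, the 9 high clones lay between 0.91 and 1.15, around the medium clones. The 2 unedited libraries at 0 µM lay at 0.83 and 0.82. With CHIR99021 the unedited libraries lay lower, from 0.54 to 0.68 over 2.5 to 10 µM.

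**Figure D5:**
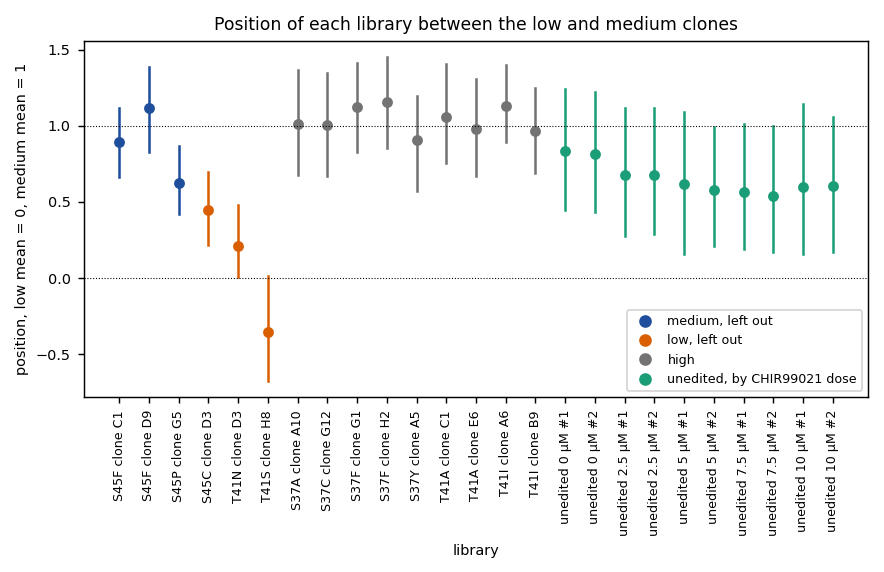
Points give the median and lines the quartiles over genes of the position of each library (x axis) between the mean of the low clones (0) and of the medium clones (1) (y axis); medium and low clones were left out of the fit that chose their genes. The medians run from T41S clone H8 (-0.35) to S45F clone D9 (1.12), each on its own set of genes, and the high clones sit near 1.

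Set against the unedited cells at 0 µM, most of the difference at the lower genes lay in the low clones. Of the 762 lower genes, T41S clone H8 exceeded both unedited libraries at 95.9%, T41N clone D3 at 84.0% and S45C clone D3 at 76.6%, with median log2 differences of 1.36, 0.87 and 0.64. The medium clones S45F clone C1, S45F clone D9 and S45P clone G5 exceeded them at 26.4, 20.7 and 39.8%, with medians of -0.23, -0.45 and -0.06. Over all tested genes the 6 clones exceeded both unedited libraries at 44.9 to 47.4%. At the 383 higher genes the medians were 0.23, 0.13 and -0.10 in the medium clones and -0.67, -0.67 and -0.91 in S45C, T41N and T41S. Both sets of genes were chosen by the values of these clones, which by itself sets the groups apart. T41S clone H8 was the highest of the 6 clones at 633 of the 762. The unedited libraries also differed from the clones in mitochondrial share, and the part of this was not tested.

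The CHIR99021 libraries share no sample with the clones and give the direction in which a gene moves when GSK3β is inhibited in unedited cells. Of 10024 genes in both fits, 5.54% rose and 6.95% fell with dose. Of the 377 genes higher in medium clones, 28 (7.43%) rose with dose and 80 (21.2%) fell, and of the 734 lower genes 28 (3.81%) fell with dose and 149 (20.3%) rose. Across the 10024 genes, which are not independent replicates, the log2 fold change between the clones and the slope on dose had a Pearson r of -0.26 and a Spearman rho of -0.25.

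Without the first unedited library at 0 µM, 13.0% of the higher genes fell and 7.83% of the lower genes rose, against 2.74% and 2.30% of all genes, and without the second 16.9% and 11.5%, against 4.41% and 3.30%. The unedited libraries held 306157 UMI counts (the first at 10 µM) to 2083398 (the second at 5 µM). Without the shallowest, 20.4% of the higher genes fell and 21.8% of the lower genes rose, against 6.93% and 5.83% of all genes. Individual genes ran in all 4 combinations. *Cdx1* and *Tbx3*, higher in medium clones, rose with dose (log2 slope 0.30 per µM, adjusted p = 5.04e-09, and 0.11 per µM, adjusted p = 0.000579). *Tcl1* and *Fgf4*, higher in medium clones, fell with dose (-0.14 per µM, adjusted p = 4.64e-06, and -0.13 per µM, adjusted p = 2.27e-07).

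*Lef1* and *Tgfb2*, lower in medium clones, rose with dose (0.24 per µM, adjusted p = 6.14e-06, and 0.18 per µM, adjusted p = 0.00223). *Pou3f1* and *Gbp2*, lower in medium clones, fell with dose (-0.27 per µM, adjusted p = 8.32e-07, and -0.13 per µM, adjusted p = 0.00415). All 10 study targets rose with dose, which their choice fixes, and 4 of them were higher in medium clones. Of the 16 naive genes 4 rose and 7 fell with dose, and of the 17 contractile genes 2 rose and 2 fell.

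Codon and category were partly confounded, so the medium clones were also compared with S45C clone D3 alone, the 1 low clone mutated at codon 45, assuming that it varies as the other groups do. Of 11120 genes 4 were then higher and 10 lower. *Tfcp2l1* and *Esrrb* were among the higher genes, with *Slc25a36* and *Sept10*, and *Id2*, *Gbp2b* and *Gbp2* were among the lower ones, with *Zfp981*, *Nrk*, *Hes6*, *Anxa1*, *Klf6* and, on chromosome 16, *Bbx* and *Atp13a3*. *Zfp981* was high in S45C clone D3 only, with 5.02, 2.75 and 2.66 CPM against 43.7, 10.1 and 6.78 CPM. *Sept10* was the 1 gene of these 14 not called with all clones. Of the 14 only *Tfcp2l1*, *Esrrb*, *Id2*, *Gbp2b* and *Gbp2* were named by the rule for named genes, and the rest were chosen after their values were seen. *Anxa1*, a calcium-dependent membrane protein, measured 43.9, 23.9 and 45.3 CPM against 149, 209.8 and 388 CPM (log2 fold change -2.81, SE 0.31, adjusted p = 2.23e-05). *Bbx*, an HMG-box factor, measured 62.1, 54.1 and 58.6 CPM against 204, 159 and 206 CPM (log2 fold change -1.74, SE 0.19, adjusted p = 2.23e-05).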

How the data were processed

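Bulk 3′ mcSCRB-seq libraries were analysed from the deposited table of UMI counts per gene, 48440 genes in 25 columns, each of which was matched to 1 sample. Per the submitters' notes and the paper, the authors trimmed adapters with Cutadapt, removed ribosomal reads with SortMeRNA and aligned to mm10 with RNA STAR. Duplicates were handled with UMI-tools and Picard, and featureCounts 2.0.1 made the counts. Reads were checked with FastQC (Galaxy version 0.73), and bedtools 2.30.0 served the coverage files. The annotation release and the use of strand are not given in the sources used here. Coordinates are those of GENCODE M21, which holds 48058 of the gene identifiers, 40606 in the same version. The categories medium and low were those of the study.

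Genes were tested in R 4.3.3 with edgeR 4.0.16, by its quasi-likelihood test after TMM scaling and filterByExpr at a minimum count of 10, in 1 fit of the 15 clones in 3 categories. The contrast was medium minus low, and p-values were adjusted by Benjamini-Hochberg over all tested genes with a threshold of 0.05, as is every adjusted p in the text. Dose was tested over the 10 unedited libraries by the same method, with a log2 slope per µM. Alternatives were DESeq2 1.42.0, other scaling and filters, thinning, summed clones and left-out clones. Scripts were tested on simulated data.

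Named genes were the study's 10 targets, *Ctnnb1*, called members of the 29 gene lists and, of called genes with at least 20 CPM and no overlap between groups, the 15 largest rises and falls outside chromosomes 6 and 16 and the 3 largest on each of these. List members given as not called, the genes called among codon 45 clones only and the CArG box were chosen after values were seen. Some genes that met the rule are not reported here. The members and lists were chosen with earlier results of these data known.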

Additional observations from a re-analysis of the deposited data

How the results depend on the processing

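With 6 clones only, 217 genes were higher in medium clones and 554 lower, and with thinned libraries 189 were higher and 379 lower. With codon 45 clones only, 4 were higher and 10 lower. Leaving out 1 clone in turn gave 85 to 526 higher and 191 to 969 lower genes, lowest without T41S clone H8. No gene was called in the opposite direction under any of these settings or under RLE, DESeq2, no filter or summed clones. With unedited cells as the reference, the shift of chromosome 6 in S45F clone D9 was 0.585 and that of chromosome 16 in S45C clone D3 was 0.575. The other clones compared then stood at 0.060 to 0.121 on chromosome 6 and at 0.063 to 0.210 on chromosome 16. Why these values moved was not tested. Of 2040 values of 138 named genes under alternatives, 1653 kept their direction and side of the threshold, 374 kept the direction and lost the call, and 13 changed sign, in 6 genes. With codon 45 clones only, the log2 fold change was 0.35 for *Axin2*, 0.51 for *Bmp4*, 0.12 for *Cdkn1a*, 0.24 for *Nkd1* and -0.13 for *Notum*. With 1 clone left out it ranged from -0.59 to 0.10 for *Bmp4*, from -0.11 to 0.036 for *Ctnnb1* and from -2.71 to 0.037 for *Nkd1*, and without S45F clone D9 and S45C clone D3 it was 0.022 for *Ctnnb1*. Leaving out 1 unedited library gave 2.12 to 7.94% of higher genes rising and 13.0 to 21.7% falling with dose, and 7.83 to 21.8% of lower genes rising and 1.89 to 4.06% falling, in each case lowest without the first library at 0 µM. No paired analysis was possible between medium and low clones because their numbers only name clones. In the dose fit a replicate block gave 6.63, 20.2, 18.4 and 3.41% in the order of the shares above. Over 10 pairs of doses the replicates' deviations correlated at -0.23 to 0.19 (7088 genes), with 3 pairs over 0.1, so the numbers were not taken to pair libraries.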

Other observations

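Over all tested genes 3.66% were higher and 7.29% lower in medium clones, the shares beside which the counts below stand. Of 15 tested p53 targets, 5 were lower in medium clones and none higher, with a median log2 fold change of -0.32. *Ccng1*, cyclin G1, measured 279, 215 and 290.2 CPM against 379, 547 and 574 CPM (log2 fold change -0.97, SE 0.19, adjusted p = 0.00218). *Perp*, a desmosomal protein, measured 72.2, 56.9 and 104 CPM against 128, 280.5 and 364 CPM (log2 fold change -1.82, SE 0.31, adjusted p = 0.00055). Both were called without T41S clone H8, whereas *Mdm2*, *Plk2* and *Cdkn1a* were not (-0.81, -1.23 and -0.38). *Cdkn1a*, the p21 inhibitor of cyclin-dependent kinases, was called, with 1 clone left out, only without S45C clone D3. Of 19 cell cycle regulators *E2f1* was higher (0.92) and *Ccnd2*, on chromosome 6, *Cdkn1a* and *Cdkn2b* were lower (-1.41, -0.74 and -2.60), with a median of -0.25. None was called without T41S clone H8, where *E2f1* stood at 0.69, *Ccnd2* at -0.99 and *Cdkn2b* at -1.76.

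Of 8 tested DNA methylation enzymes, *Tet2*, *Dnmt1*, the maintenance methyltransferase, and its partner *Uhrf1* were higher (1.60, 0.50 and 0.67) and *Tet3*, on chromosome 6, was lower (-1.77), with a median of 0.28. Only *Tet2* was called without T41S clone H8, where *Dnmt1* stood at 0.38, *Uhrf1* at 0.63 and *Tet3* at -1.61 and the median was -0.06. Of 18 imprinted genes 2 were lower, *Igf2* and *Peg3* (-2.04 and -1.24; median -0.21), a share near that of all genes, and neither was called without that clone (-1.61 and -0.94). Of 20 hypoxia and glycolysis genes *Hk2*, on chromosome 6, and *Pfkp* were higher (0.67 and 1.52) and the glucose transporter gene *Slc2a1* was lower (-0.76; median 0.18), of which *Pfkp* was called without T41S clone H8 and *Hk2* and *Slc2a1* stood at 0.57 and -0.34. Of 22 cholesterol and fatty acid synthesis genes *Sqle*, *Sc5d* and *Scd2* were lower (-0.81, -1.03 and -0.77; median -0.32). None of the 3 was called without T41S clone H8 (-0.66, -0.82 and -0.27), where the median was -0.09.

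Of 13 genes of the FGF and ERK response *Etv4* was higher and *Dusp5*, *Ier3* and *Phlda1* were lower (-2.63, -1.70 and -2.21; median -0.23). Of 12 Nodal and Lefty genes *Tdgf1* was higher and *Smad3* and *Furin* were lower (-1.65 and -1.67; median 0.12). None of these was called without T41S clone H8, where *Dusp5*, *Ier3* and *Phlda1* stood at -2.06, -1.37 and -1.62, *Smad3* and *Furin* at -1.17 and -0.92, and the Nodal and Lefty median was 0.39. Of 9 Cdx, Hox and retinoic acid genes *Cdx1* was higher and 2 were lower, among them *Crabp2* (-1.96; median of the list -0.73, and 0.21 without T41S clone H8). *Crabp2* was called without T41S clone H8 and not without S45F clone C1 (-1.43). Of 4 genes of the 2-cell-like state, 7 germline genes and 3 Y chromosome genes tested, edgeR called 0, and 2 had an unadjusted p under 0.05. These were *Ddx4*, a germ cell helicase (log2 fold change -0.71, SE 0.29, adjusted p = 0.124), and *Sycp3*, of the synaptonemal complex (log2 fold change 1.12, SE 0.36, adjusted p = 0.0507), both chosen after their values were seen. DESeq2 called *Sycp3* (adjusted p = 0.0368).

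Leaving out another clone ended further calls among the genes named here, with the sign of the log2 fold change kept. Without S45F clone C1 these were, with their log2 fold changes in that fit, *Ccnd2* (-0.85), *Dnmt1* (0.47), *Peg3* (-1.19), *Phlda1* (-2.05), *Sc5d* (-0.87), *Scd2* (-0.70), *Slc2a1* (-0.80), *Sqle* (-0.70) and *Tet3* (-1.65). Without S45F clone D9 they were *Dnmt1* (0.52), *Uhrf1* (0.58), *Dusp5* (-2.25), *Furin* (-1.40), *Hk2* (0.33), *Peg3* (-0.86), *Phlda1* (-2.03), *Sc5d* (-0.95), *Scd2* (-0.67) and *Slc2a1* (-0.69). Without S45P clone G5 they were *Slc2a1* (-0.70) and *Uhrf1* (0.70), and without T41N clone D3 *Ccnd2* (-1.34), *Dnmt1* (0.52) and *Uhrf1* (0.69).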
